A study of Trichoderma cf. simile with 24 samples.

Results

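In shaken cultures of the mould Trichoderma cf. simile WF8, profiled by RNA sequencing, 26 of 12486 numbered gene models changed with time in control cultures while their day 1 means stayed within set limits of the control with every compound tested. They were chosen on log2(mean FPKM + 1), where FPKM is the read count scaled by gene length and by library size. A gene was taken if the control differed between days 1 and 3 by at least 1. At day 1 its 4-phenoxybenzoic acid and 9,10-dibutoxyanthracene means had to lie within 0.5 of the control and its phenetole mean within 1. At day 3 its phenetole and 9,10-dibutoxyanthracene means had to lie within 1 of the control. In all, 1759 gene models changed by at least 1 in the control, 812 upward and 947 downward. Of these, 269 also met the 4-phenoxybenzoic acid limit, 105 then met the 9,10-dibutoxyanthracene limit, and 26 met all limits, 18 of them higher and 8 lower at day 3. All 26 passed the filter on low counts. Values from 7 of the 8 groups thus chose the genes, and the day 3 cultures with 4-phenoxybenzoic acid were the one group that did not take part.

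The strain WF8 came from decaying wood near a coal mine, and every group is this single strain in maltose and peptone broth, grown for 60 h before additions. Controls received no lignite model compound, and the other cultures received 200 mg/L phenetole, 10 mg/L 4-phenoxybenzoic acid or 5 mg/L 9,10-dibutoxyanthracene. The last pair of compounds came from stocks in dichloromethane, which made up 5% and 2.5% of the culture volume, and the treatment text also lists added copper, manganese and veratryl alcohol. The sources used here do not say whether the control received the solvent or these additions, so compound and solvent cannot be told apart. Each group is 3 flasks at 1 day, numbered alike on both days, and nothing says whether a flask was sampled at both or was a separate culture, so the p-values cover the spread between these libraries, which may be technical. Library totals ran from 16767477 to 19842379 counts.

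Trichoderma species are fast-growing moulds of soil and wood, known for secreted enzymes that break down plant cell walls and other fungi. In a batch culture the medium is consumed as the mycelium ages, and transcripts of uptake, metabolism, stress and development shift with culture age. The control time course measures such a shift, and the genes described here are those whose day 1 means kept within the limits above; for phenetole the limit of 1 is as wide as the smallest control change taken, so part of a shift could already be present at day 1. The gene IDs come with a name or function in 0 cases, so no role can be given to a gene. A difference per unit of RNA in a bulk culture cannot tell fewer cells that express a gene from less RNA per cell.

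**Figure D1:**
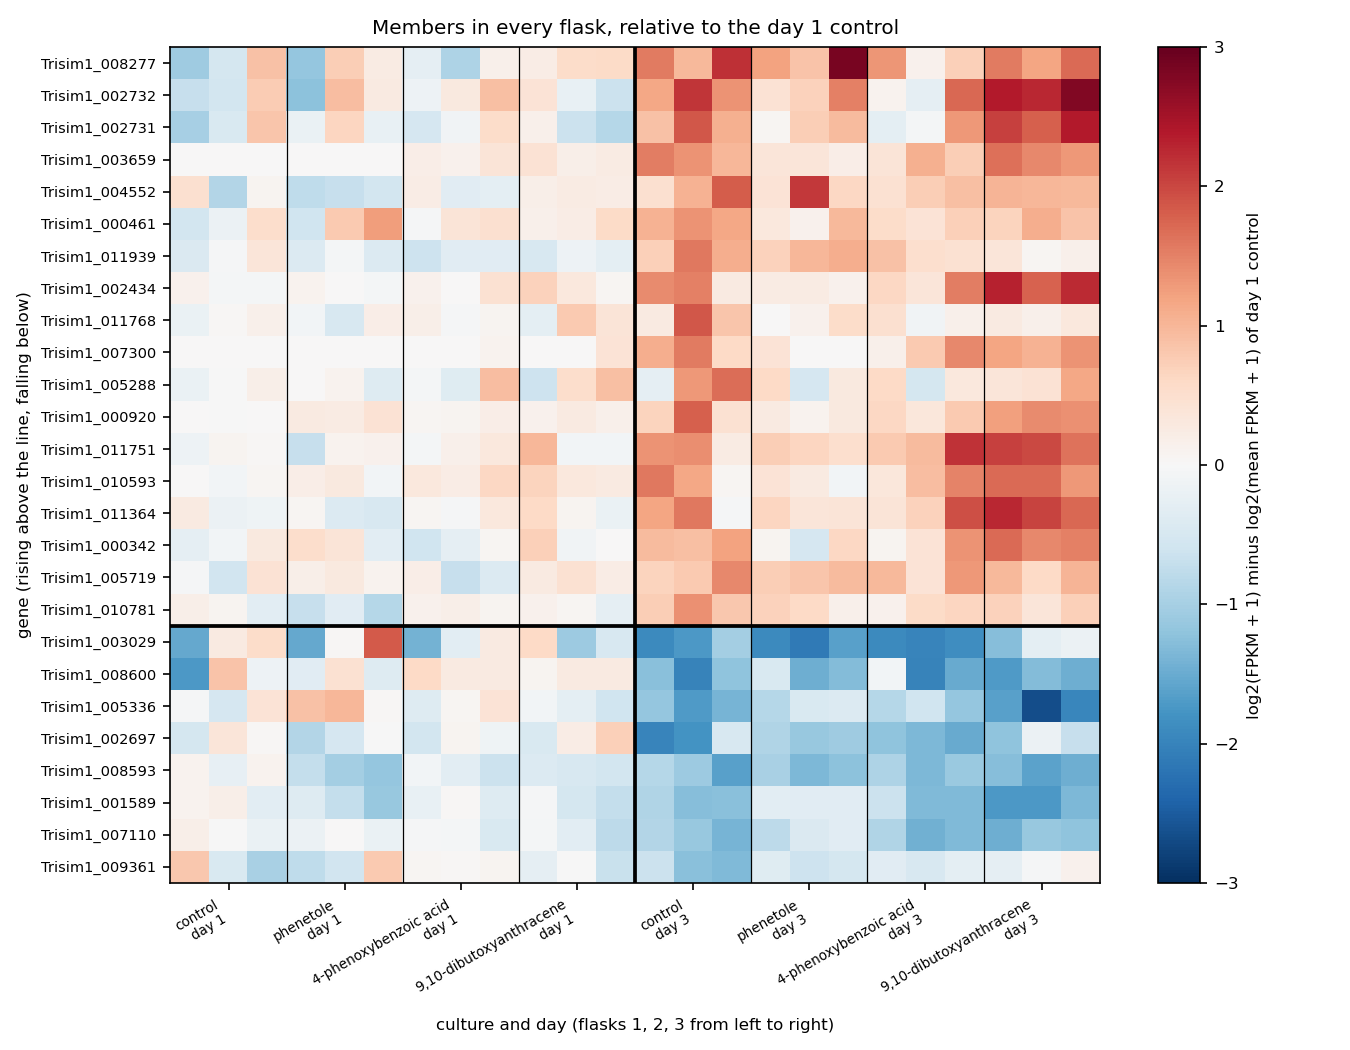
Level of the 26 genes in each of 24 libraries, as log2(FPKM + 1) minus the log2(mean FPKM + 1) of the day 1 control; rows are genes, columns are flasks by culture and day, red is higher and blue is lower. Day 3 control columns are mostly red for the 18 rising genes and blue for the 8 falling genes, as the selection requires, while the 4-phenoxybenzoic acid columns at day 3 were not used to choose the genes.

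The genes spanned a wide range of levels. The most abundant was Trisim1_008277 (210 bp), at 2569.9, 3733 and 9944 FPKM in the day 1 control flasks and 15978, 10622 and 24582 FPKM in the day 3 control flasks. Its control flasks did not overlap between days, although the highest day 1 flask lay close to the lowest day 3 flask. Next among the rising genes came Trisim1_002731 (438 bp), at 41.8, 60.8 and 151 FPKM at day 1 and 155, 311 and 178 FPKM at day 3 in the control. Its neighbour in the gene numbering, Trisim1_002732 (933 bp), stood at 36.9, 40.3 and 102 FPKM and then at 136, 266 and 153 FPKM. For both neighbours every day 3 control flask lay above every day 1 control flask. Among the falling genes the most abundant was Trisim1_007110 (5105 bp), at 124, 109 and 95.6 FPKM at day 1 and 59.1, 49.1 and 41.4 FPKM at day 3, with no overlap. Trisim1_002697 followed at 34.4, 64.6 and 50.8 FPKM and then 11.9, 13.7 and 35.7 FPKM, where the highest day 3 flask lay above the lowest day 1 flask. This model is 88 bp long, and Trisim1_008277, Trisim1_005719 (240 bp) and Trisim1_002697 are all shorter than the 370 to 420 bp fragments of the libraries, so their FPKM levels per length are uncertain.

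In the control, 15 of the 18 rising genes and 4 of the 8 falling genes had day 3 flasks wholly above or wholly below the day 1 flasks, respectively, where 15.1% and 16.4% of the 10842 loci tested did. The edgeR test called 23 of the 26 for this comparison, against 20.8% of loci; the comparison chose the genes and nothing is read from either count. The 3 genes it did not call were Trisim1_003029, Trisim1_005288 and Trisim1_009361, whose control flasks overlapped. Trisim1_003029 stood at 0.513, 4.24 and 5.36 FPKM at day 1 and at 0.166, 0.316 and 1.17 FPKM at day 3. Trisim1_009361 stood at 62.2, 25.3 and 17.2 FPKM and then 22.1, 14.1 and 13.2 FPKM, so its day 1 mean rested on flask 1. The median control change on log2(mean FPKM + 1) was 1.14 for the rising and −1.20 for the falling genes, against 1.65 and −1.45 for all 812 and 947 control time genes. The genes nearest the limit of 1 were Trisim1_010781, which stood at 9.66 ± 1.91 FPKM at day 1 and 20.4 ± 5.43 FPKM at day 3, and Trisim1_005719, at 18.1 ± 6.45 and 37.3 ± 11.7 FPKM (SD, n = 3). Just outside it, with all other limits met, were Trisim1_012387, at 8.29 ± 0.868 and 3.69 ± 1.64 FPKM, and Trisim1_008877, at 58.5 ± 32 and 117 ± 8.55 FPKM. Another 58 control time genes missed the 9,10-dibutoxyanthracene limit at day 1 alone, and 18 missed the 4-phenoxybenzoic acid limit alone.

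How near the day 1 cultures with a compound lay to the control depended on the scale. The 26 genes split into 18 with a day 1 control mean of at least 1 FPKM and 8 below it, all of them rising genes. In the 18 better-expressed genes the edgeR log2 differences from the day 1 control, fitted to counts, lay between −0.45 and 0.44 toward the control's later change with 4-phenoxybenzoic acid and between −0.37 and 0.59 with 9,10-dibutoxyanthracene. None of these 18 was called in either comparison, and the limits of the choice required their closeness. In the 8 low genes the added 1 FPKM exceeds the signal. Of these, 5 were over 1 on the edgeR log2 scale above the day 1 control with 4-phenoxybenzoic acid and 5 with 9,10-dibutoxyanthracene. Both counts include Trisim1_007300, which held 0 counts in the day 1 control. It held 0, 0 and 1 counts with 4-phenoxybenzoic acid, too few for a fold. With 9,10-dibutoxyanthracene it held 0, 0 and 4, at least 1.07-fold.

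Trisim1_003659 (1466 bp) showed this most clearly. It had 0 counts in all day 1 control flasks, but 5, 3 and 10 counts in the 4-phenoxybenzoic acid flasks and 12, 4 and 5 in the 9,10-dibutoxyanthracene flasks of day 1. All 6 of these flasks thus held reads where the control and phenetole flasks held none. Pooled over flasks and scaled by library size, it was at least 4.68-fold and 5.63-fold higher than a floor of 3 counts over the control group, while the day 3 control, with 66, 47 and 21 counts, was at least 39.1-fold higher. Trisim1_000920 (3611 bp) held 1, 0 and 1 counts in the day 1 control and 5, 5 and 13 with 4-phenoxybenzoic acid, 8.98-fold higher (95% counting interval 2.22 to 78.6). It held 8, 17 and 8 counts with 9,10-dibutoxyanthracene, 13.3-fold (3.39 to 114), and 10, 9 and 14 with phenetole, 23.3-fold (5.96 to 200). Every day 1 flask with a compound was above every control flask for this gene. Trisim1_010593 (1389 bp) held 4 counts over the day 1 control, 36 with 4-phenoxybenzoic acid, 7.03-fold (2.52 to 27.2), and 39 with 9,10-dibutoxyanthracene, 7.84-fold (2.83 to 30.2). Trisim1_002434 (1796 bp) held 5, 25 and 43 counts in the same groups, 3.9-fold (1.47 to 13.1) and 6.91-fold (2.74 to 22.4). Trisim1_011939 (2915 bp) went the other way, with 73 counts in the control, 30 with 4-phenoxybenzoic acid and 46 with 9,10-dibutoxyanthracene, 0.321-fold (0.202 to 0.497) and 0.507-fold (0.342 to 0.743). Such intervals and floors come from counts pooled over the 3 flasks, so they reflect counting error alone and leave out the spread between flasks. Amplified reads that lack molecular identifiers are also not independent.

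In the fit over all loci, Trisim1_003659 and Trisim1_000920 were called at day 1 with both compounds added in dichloromethane. Thus 2 of the 26 were called with 4-phenoxybenzoic acid, against 24% of loci tested, and 2 with 9,10-dibutoxyanthracene, against 31.7%. With phenetole 4 were called, against 27.6% of loci. These were Trisim1_000920, which was higher, and Trisim1_008593, Trisim1_001589 and Trisim1_010781, which were lower; for Trisim1_010781 that is the direction opposite to its control time change. Trisim1_008593 stood at 2.84, 2.1 and 1.8 FPKM with phenetole at day 1 and at 5.77, 4.25 and 5.8 FPKM in the day 1 control, −0.95 on log2(mean FPKM + 1) where its control change with time was −1.15. For Trisim1_001589 the values were −0.71 and −1.14. Trisim1_000461, which was not called, stood 0.66 above the day 1 control where its control change was 1.19. For these 3 genes more of the control change was present at day 1 with phenetole than was absent. The selection used these comparisons, so the counts are a description. The description "not brought forward" thus goes against the values of at least Trisim1_003659 and Trisim1_000920 on a count scale, and of Trisim1_008593 and Trisim1_001589 with phenetole.

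**Figure D2:**
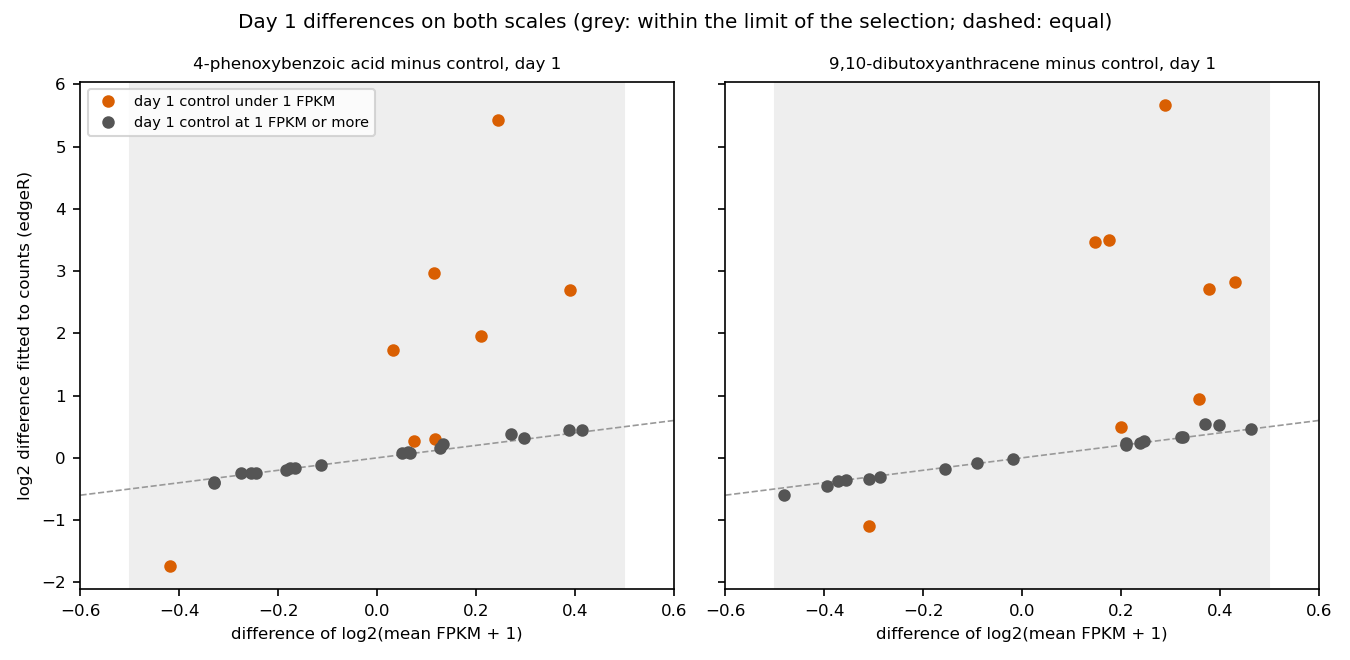
Difference of each compound in dichloromethane from the day 1 control for the 26 genes, on log2(mean FPKM + 1) (horizontal) and as the edgeR log2 difference fitted to counts (vertical); grey marks the limit of 0.5 used to choose the genes. Genes at 1 FPKM or more in the day 1 control (dark) lie along the line of equality, while 5 of the 8 genes under 1 FPKM (orange) lie above 1 on the vertical axis in each panel; fitted values of genes with 0 control counts depend on a prior count.

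The cultures with 4-phenoxybenzoic acid, a diaryl ether carrying a carboxylic acid, provided the comparison between days in which the day 3 libraries had no part in choosing the genes. There, 4 of the 26 genes changed, all in the direction of the control, against 3.03% of all 10842 loci called (edgeR quasi-likelihood test, Benjamini-Hochberg adjusted p under 0.05). Trisim1_011939, Trisim1_000920 and Trisim1_005719 rose and Trisim1_007110 fell. The day 1 libraries of this compound had been used, against the day 1 control, so genes that had already moved by day 1 with it could not be taken. The day 1 control that these libraries had to lie near was itself chosen to lie far from day 3. The direction, size and number of the changes in these cultures thus lean on the choice. So do the flask separations and unadjusted p-values below, and none of them is a free test against all loci.

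Trisim1_007110 fell from 107, 106 and 79 FPKM at day 1 to 58.5, 39.7 and 43.2 FPKM at day 3. The flasks of the days did not overlap, and the day 3 values lay in the range of the day 3 control flasks or just under it. Its log2 change was −1.04 ± 0.24 (SE; adjusted p = 0.0259, edgeR), close to the −1.12 ± 0.24 of the control. Trisim1_005719 rose from 20.8, 10.7 and 13.4 FPKM to 36.7, 24.5 and 46.3 FPKM, with no overlap, a log2 change of 1.26 ± 0.31 (adjusted p = 0.0326, edgeR). Trisim1_011939 rose from 0.0149, 0.225 and 0.233 FPKM to 1.85, 1.19 and 1.11 FPKM. That is a change from 30 to 302 pooled counts, 9.02-fold, with a log2 change of 3.14 ± 0.70 (adjusted p = 0.0199, edgeR). Trisim1_000920 rose from 0.0602, 0.0649 and 0.163 FPKM to 0.549, 0.272 and 0.742 FPKM, again without overlap, 5.49-fold on pooled counts and 2.42 ± 0.66 on the log2 scale (adjusted p = 0.0477, edgeR). Without day 1 flask 1 or day 1 flask 2 of this compound 0 of the 26 were called, without day 3 flask 3 the call of Trisim1_011939 alone was left, and without day 1 flask 3 those of Trisim1_007110 and Trisim1_011939. The call of Trisim1_000920 was lost in 9 of 14 alternatives, among them both limma fits and the fit with no filter, that of Trisim1_005719 in 6, of Trisim1_007110 in 4 and of Trisim1_011939 in 3. Fitted without the other groups, Trisim1_007110 alone of the 4 was called. With flask number as a block the same 4 were called and Trisim1_001589 (adjusted p = 0.0262, edgeR) and Trisim1_008593 (adjusted p = 0.0314, edgeR) joined them.

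**Figure D3:**
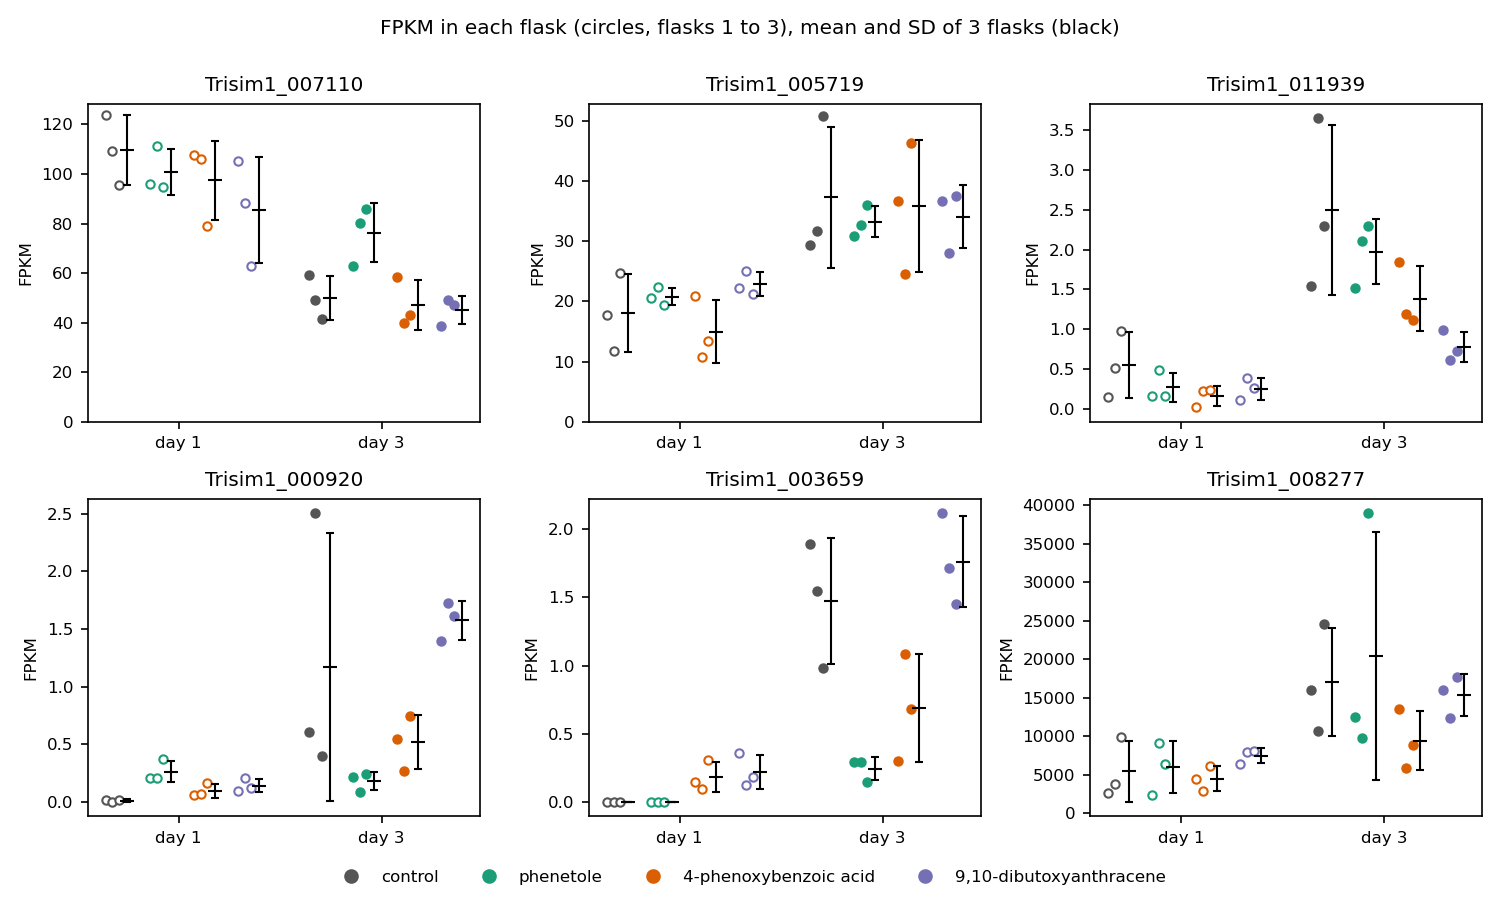
FPKM in each flask (circles, open for day 1 and filled for day 3) with the mean and SD of 3 flasks (black), for the 4 genes that changed with time under 4-phenoxybenzoic acid, for Trisim1_003659 and for the most abundant gene. For Trisim1_007110, Trisim1_005719, Trisim1_011939 and Trisim1_000920 the orange day 3 circles lie wholly on one side of the orange day 1 circles.

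All 8 falling genes had every day 3 flask below every day 1 flask with 4-phenoxybenzoic acid, a pattern that 13.5% of all loci tested showed. Trisim1_001589 (3089 bp) went from 6.67, 8.17 and 5.86 FPKM to 4.75, 2.6 and 2.58 FPKM, and Trisim1_008593 (2007 bp) from 4.94, 4.04 and 2.98 FPKM to 2.29, 1.47 and 1.91 FPKM. Their log2 changes of −1.05 ± 0.29 and −1.06 ± 0.32 had adjusted p-values of 0.0534 and 0.0698 (edgeR). Trisim1_005336 (2454 bp) went from 7.12, 9.92 and 13.1 FPKM to 4.88, 6.03 and 3.73 FPKM. Trisim1_008600 (3649 bp) went from 13.1, 10.2 and 10.3 FPKM to 7.87, 1.32 and 2.28 FPKM, so that day 3 flask 1 stayed near the day 1 level. Trisim1_002697 went from 33.6, 52.8 and 45.9 FPKM to 21.2, 19.1 and 16.8 FPKM. The smallest difference was that of Trisim1_009361 (1815 bp), from 36.6, 35.8 and 37.3 FPKM to 27.3, 24.8 and 28.4 FPKM, −0.44 ± 0.39 in log2 units (adjusted p = 0.688, edgeR). The day 1 flasks of this gene with 4-phenoxybenzoic acid were far closer together than the day 1 control flasks. Trisim1_003029 (762 bp) went from 11, 41 and 72 counts to 3, 2 and 4, a log2 change of −3.89 ± 1.19 (adjusted p = 0.0782, edgeR). The median edgeR log2 change of the 8 falling genes was −1.06, against 0.01 for all loci tested.

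Of the 18 rising genes, 8 had every day 3 flask above every day 1 flask with 4-phenoxybenzoic acid, against 12.7% of all loci tested, and none had the reverse. Besides the 3 genes that rose, these were Trisim1_004552 (864 bp), Trisim1_007300 (669 bp), Trisim1_011751 (4084 bp), Trisim1_011364 (2703 bp) and Trisim1_000342 (1349 bp). Trisim1_011751 stood at 1.67, 2.09 and 2.47 FPKM and then 3.84, 4.42 and 11.5 FPKM, a log2 change of 1.67 ± 0.47 (adjusted p = 0.0527, edgeR). Trisim1_004552 stood at 34.9, 23.3 and 24.4 FPKM and then 41.6, 50.2 and 56.7 FPKM, 0.86 ± 0.39 (adjusted p = 0.27, edgeR). Day 3 flask 3 was the highest of its group for both. Trisim1_007300 held 0, 0 and 1 counts at day 1 and 2, 12 and 29 at day 3, 38.5-fold higher on pooled counts, where the counting interval was 6.56 to 1560 and the adjusted p was 0.0858 (edgeR). The median edgeR log2 change of the 18 rising genes was 1.17, against the same 0.01. For the 806 rising control time genes tested it was 0.63, and 76.1% of them were higher at day 3 with this compound. The share among the 18 was 94.4%. On log2(mean FPKM + 1) the 812 rising control time genes had a median of 1.07 above the control already at day 1 with this compound. The 18 were required to lie within 0.5, so the sets are not alike. In the control the 18 rising genes of the set had a median of 1.66, which stays at 1.66 with the genes at 0 counts set to their lower bounds. By unadjusted p under 0.05, 17 of the 26 differed between days with 4-phenoxybenzoic acid, against 16.3% of loci.

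At the other end, Trisim1_005288 (1275 bp) stood at 2.56, 1.88 and 6.05 FPKM at day 1 and 4.6, 1.57 and 3.67 FPKM at day 3 with 4-phenoxybenzoic acid, with flasks that interleaved. It was the one gene of the 26 whose fitted change had the sign opposite to that of the control, −0.09 ± 0.58 in log2 units (adjusted p = 0.979, edgeR). Trisim1_011768 (1868 bp) stood at 0.628, 0.427 and 0.534 FPKM and then 1.04, 0.35 and 0.621 FPKM, again with overlap. In the control its day 3 flasks were at 0.743, 4.28 and 1.57 FPKM, so the control mean rested on flask 2. The numbered neighbours Trisim1_002731 and Trisim1_002732 also overlapped between days with this compound. Trisim1_002731 stood at 59.7, 78.9 and 124 FPKM and then 68.5, 80.6 and 210 FPKM. Trisim1_002732 stood at 53.9, 73.5 and 112 FPKM and then 63.8, 49.7 and 198 FPKM, where flask 3 alone reached the range of the day 3 control.

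**Figure D4:**
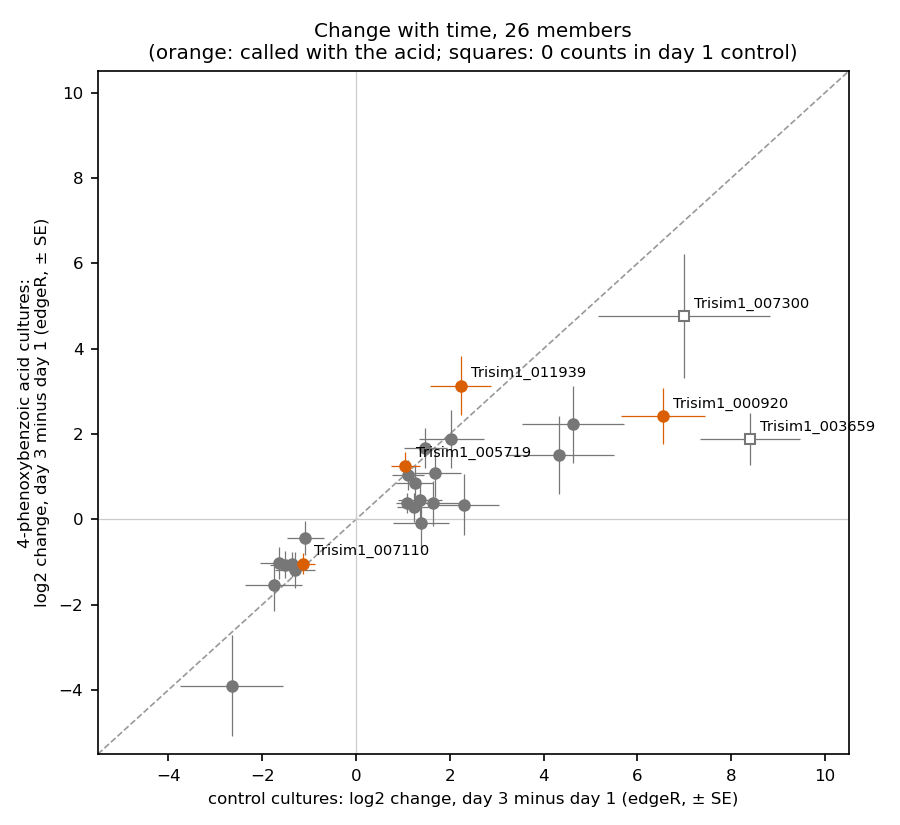
Log2 change from day 1 to day 3 with 4-phenoxybenzoic acid (vertical) against the control (horizontal) for the 26 genes, edgeR estimates with SE bars; orange points were called with the acid, squares had 0 counts in the day 1 control so that their horizontal position depends on a prior count, and the dashed line marks equal change. 25 of the 26 points have the same sign on both axes, with Trisim1_005288 the exception; the control change was required to be large, so the distance from the dashed line is not a result.

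The plot of both changes sets the cultures side by side as a description. The day 1 values of the control and of 4-phenoxybenzoic acid were tied by the limit of 0.5, and the control change by the limit of 1, so the closeness of the changes and their order of size are partly fixed by the choice of genes.

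Whether the control change differed from that with 4-phenoxybenzoic acid was tested as a difference of changes. It passed for 2 of the 26, Trisim1_003659 and Trisim1_000920, against 5.15% of loci tested, and 3 groups of this test had helped to choose the genes. Trisim1_003659 stood at 0.148, 0.096 and 0.309 FPKM at day 1 and 0.297, 1.09 and 0.682 FPKM at day 3 with 4-phenoxybenzoic acid, 3.73-fold on pooled counts with a counting interval of 2.21 to 6.64, where the control was at least 39.1-fold higher at day 3. The difference of changes had an adjusted p of 0.00765 (edgeR). Trisim1_000920 was 5.49-fold (3.52 to 8.95) higher at day 3 with 4-phenoxybenzoic acid and 114-fold (31.3 to 949) in the control, a log2 difference of −4.12 ± 1.13 (adjusted p = 0.0362, edgeR). Both are genes that already held reads at day 1 with the compound, and for Trisim1_000920 the control flasks of day 3, at 0.606, 2.51 and 0.398 FPKM, ranged widely. Its call was lost in 9 of 20 alternatives, and that of Trisim1_003659 in 0 of 20.

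Against the day 3 control, the day 3 cultures with 4-phenoxybenzoic acid gave 0 calls among the 26 by edgeR, where 0.0738% of all loci were called. By unadjusted p under 0.05, 2 of the 26 differed, against 10.1% of loci, and DESeq2, both limma fits and the edgeR fit blocked on flask number called 0 as well. The 2 genes were Trisim1_011768, with a log2 difference of −1.69 ± 0.71 (adjusted p = 0.42, edgeR), and Trisim1_010781, with −0.55 ± 0.23 (adjusted p = 0.431, edgeR). Trisim1_010781 (2876 bp) stood at 10.7, 14.9 and 15.6 FPKM with the compound and at 16.9, 26.6 and 17.5 FPKM in the control, so its flasks did not overlap. All flasks below the control was the pattern of 2 rising genes and of 8.72% of all loci tested, and all flasks above it that of 1 falling gene and of 8.58% of loci. The other rising gene without overlap was Trisim1_000461 (2505 bp), chosen after its values were seen, at 53.4, 48.5 and 60.3 FPKM against 76, 94.3 and 81.7 FPKM (adjusted p = 0.563, edgeR). Of the falling genes, Trisim1_009361 lay above the control in every flask, at 27.3, 24.8 and 28.4 against 22.1, 14.1 and 13.2 FPKM (adjusted p = 0.565, edgeR). On log2(mean FPKM + 1) the median difference from the day 3 control was −0.52 for the rising genes and 0.06 for the falling genes, against 0.02 and −0.10 for all control time genes. The day 3 control helped to choose the genes, so these medians lean on values that were required to be far from day 1. The day 3 mean with 4-phenoxybenzoic acid lay nearer to the day 3 than to the day 1 control for 11 of the 18 rising genes and 7 of the 8 falling genes, where the shares over all control time genes were 84.1% and 98.2%. These shares lean on the choice too. At day 1 with this compound, all control time genes already had median differences from the control of 1.07 (rising) and −1.37 (falling). The 26 were held within 0.5.

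With phenetole and 9,10-dibutoxyanthracene the day 3 levels were held to within 1 of the control by the choice of genes, and the values are a description. With 9,10-dibutoxyanthracene 14 of the 26 were called between days, against 21.7% of loci, and with phenetole 8, against 45.5%; every one of these calls had the direction of the control. Against the day 3 control 0 were called with 9,10-dibutoxyanthracene, against 16% of loci, and 2 with phenetole, against 3.42%. At an unadjusted p under 0.05 the counts were 5 of the 26 with 9,10-dibutoxyanthracene, against 31.7% of loci, and 11 with phenetole, against 19.8%. The 2 called with phenetole were again Trisim1_003659 and Trisim1_000920. Trisim1_003659 stood at 0.292, 0.294 and 0.147 FPKM with phenetole at day 3 and at 2.12, 1.72 and 1.45 FPKM with 9,10-dibutoxyanthracene, with all phenetole flasks below the 0.98 FPKM of the lowest control flask. Trisim1_000920 stood at 0.214, 0.0894 and 0.239 FPKM with phenetole and 1.39, 1.72 and 1.62 FPKM with 9,10-dibutoxyanthracene. With phenetole it was no higher at day 3 than at day 1, when it stood at 0.211, 0.206 and 0.369 FPKM. Trisim1_001589, a falling gene, stood at 5.89, 4.49 and 3.08 FPKM with phenetole at day 1 and 6.17, 6.05 and 6.13 FPKM at day 3, against day 3 control flasks of 3.77, 2.68 and 2.79 FPKM. Every day 3 flask with phenetole lay above every day 1 flask, opposite to the control, with a log2 difference of 0.49 ± 0.29 (adjusted p = 0.174, edgeR). Trisim1_002732 and Trisim1_002731 were highest with 9,10-dibutoxyanthracene at day 3, the first at 316, 292 and 418 FPKM and the second at 351, 295 and 440 FPKM.

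The choice used means of 3 flasks, which a single flask can shift, so patterns among flasks also lean on it. Without day 3 control flask 3, for one, 11 of the 26 genes still met the limits. Some members moved together among flasks. Over the deviations of the 24 libraries from their group means in log2(CPM + 0.5), where CPM is the count scaled to a common library size by TMM, the neighbours Trisim1_002731 and Trisim1_002732 correlated with r = 0.88. Of the 10841 other loci tested, Trisim1_002732 was the one most like Trisim1_002731, which ranked 2 in the list of Trisim1_002732. Trisim1_002434 and Trisim1_011364, which are not neighbours, correlated with r = 0.89 and each ranked 2 in the other's list. Trisim1_010593 followed Trisim1_011364 with r = 0.82 but ranked 36 in its list, and Trisim1_011364 ranked 21 in that of Trisim1_010593. Of all 325 pairs of the 26 genes, 6 exceeded 0.7, 3 were below −0.7 and the median was 0.03, so the set as a whole did not move as a block. No share over pairs of all loci was computed, so these counts cannot be called particular to the 26. The points share libraries and depth, and each correlation is a description over 24 libraries. The gene numbering held a single pair of adjacent members, and the median length was 1428 bp for the rising and 2231 bp for the falling genes, against 1578 bp for all loci tested.

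**Figure D5:**
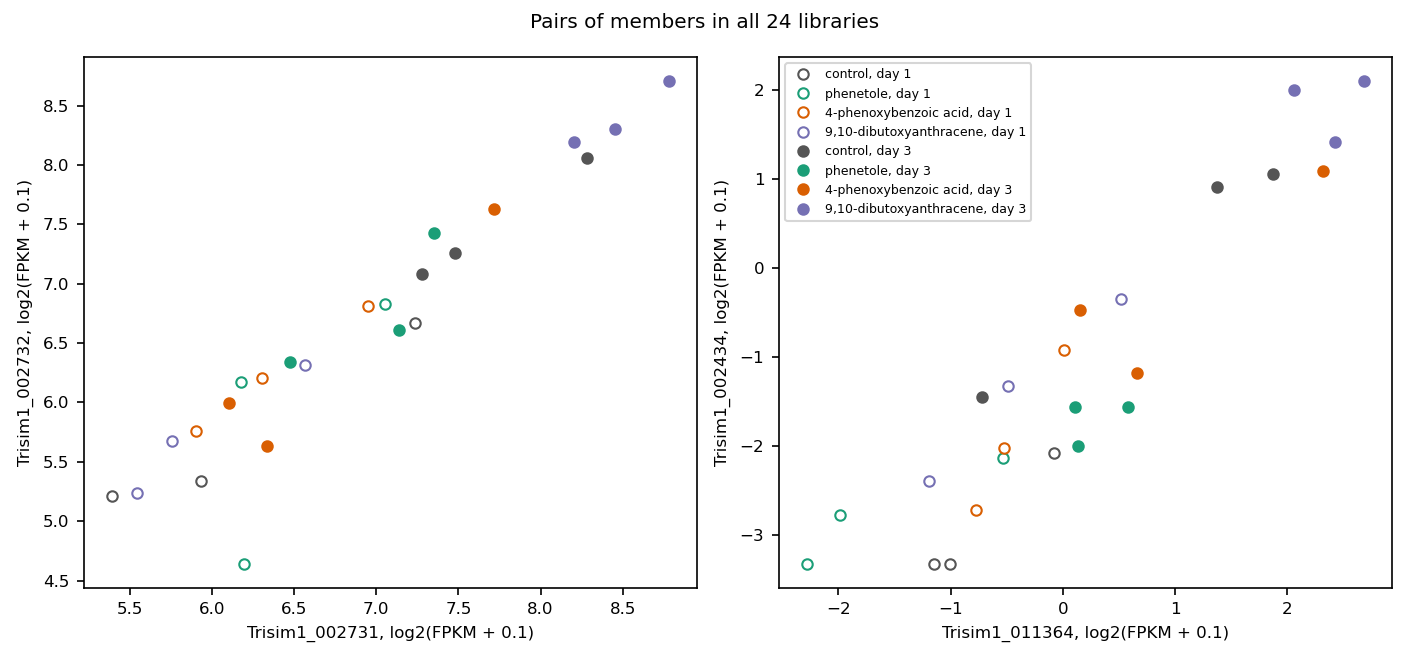
FPKM of 2 pairs of genes in all 24 libraries on a log2(FPKM + 0.1) scale, open circles for day 1 and filled circles for day 3, coloured by culture. Trisim1_002731 and Trisim1_002732 (left) follow each other across cultures and days, and for Trisim1_011364 and Trisim1_002434 (right) single day 3 flasks of the control and of 4-phenoxybenzoic acid lie apart from the others of their group.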

How the data were processed

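Messenger RNA from 24 samples of mycelium was read from both ends, 150 bp each, per the labels. The deposited table of raw counts per gene came from featureCounts 1.5.0-p3, per the submitters' processing notes; an aligner, build or annotation is not given in the sources used. The deposited FPKM table was checked against it: each FPKM is its count over gene length and over the library total after median-of-ratios scaling, and all 12728 lengths so recovered were whole within 0.01 bp. Counts were fitted in R 4.3.3 with edgeR 4.0.16 (filterByExpr with a minimum count of 10, TMM, a coefficient for each of 8 groups, quasi-likelihood F test in both directions, Benjamini-Hochberg adjustment over all 10842 loci tested, called under 0.05); the SE of a log2 change is its size over the square root of F, and the method was tested on simulated data. Alternatives used DESeq2 1.42.0, limma 3.58.1 on log2(FPKM + 1) and log2(FPKM + 0.1), RLE factors, no filter, the compared groups alone, flask blocks and each flask left out. A fold against a group with 0 counts uses a floor of 3 counts over the group. Pooled folds carry exact 95% counting intervals, which leave out the spread between flasks.

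Same-numbered flasks of days 1 and 3 had correlations over loci of 0.199, 0.114 and 0.315 with 4-phenoxybenzoic acid. In the control these were 0.283, 0.0611 and 0.397. In both cultures day 1 flasks 1 and 3 correlated best with their own number at day 3, and flask 2 did not. Between this compound and the control the values were 0.302, 0.0518 and 0.286 at day 1, and −0.00507, 0.0377 and −0.143 at day 3. Those are different cultures, so the correlations do not show that a flask was sampled on both days. The block is therefore given only beside the main fits. It uses the flask numbers of the labels, which do not say that same-numbered flasks belong together. The genes, lists and rules for naming were chosen with earlier results of these data known. Genes were named by a rule of size: the largest control changes without overlap of flasks, the largest calls with 4-phenoxybenzoic acid, the values farthest short of the day 3 control, the most abundant, and those at the limit of the choice. Other genes were named to account for all 26, after their values were seen.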

Additional observations from a re-analysis of the deposited data

Results flagged for a closer look

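The test of the difference of changes between 4-phenoxybenzoic acid and control cultures called 2 of the 26 genes, against 5.15% of loci tested (edgeR). In this test 3 of the groups had helped to choose the genes, so the count is a description. For Trisim1_003659 the log2 difference was −6.51 ± 1.34 (adjusted p = 0.00765, edgeR), a fitted value that depends on a prior count because the day 1 control held 0 counts. For Trisim1_000920 it was −4.12 ± 1.13 (adjusted p = 0.0362, edgeR), with 2 counts over the day 1 control. Both genes were higher at day 3 in all 3 flasks of the control, and Trisim1_000920 also in all 3 flasks with 4-phenoxybenzoic acid. Both were also called between this compound and the control at day 1, and neither was called at day 3.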

How the results depend on the processing

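The set of 26 genes depends on the settings of the choice. The number of loci that met the limits was 42 with a pseudocount of 0.1, chosen after seeing the data, and between 23 and 41 with 1 flask left out. Of the 26, 14 still met them with a pseudocount of 0.5, 12 with 0.1, 10 with 2, 15 with TMM-scaled CPM and 10 with medians of flasks, and between 11 (without day 3 control flask 3) and 26 with 1 flask left out. All 8 genes under 1 FPKM were lost with each other pseudocount and with CPM. Between days with 4-phenoxybenzoic acid, 9 of the 26 were called by DESeq2, 2 with the compared groups alone and 0 to 5 with 1 flask left out. Over all loci the counts were 731 by DESeq2, 335 with the compared groups alone, 30 to 318 with 1 flask left out and 329 as reported. Against the day 3 control the 26 gave 0 calls in every alternative, while all loci gave 188 by DESeq2, 0 when fitted without the other groups (where 1079 had an unadjusted p under 0.05), 133 with the replicate block and 1 to 82 with 1 flask left out, against 8. For the difference of changes the 26 gave 1 call with the compared groups alone, 1 in each limma fit and 1 to 2 with 1 flask left out. All loci gave 448 with the compared groups alone, and 600 and 540 by limma on log2(FPKM + 1) and log2(FPKM + 0.1). They gave 884 by DESeq2, 389 to 656 with 1 flask left out and 558 as reported. With the replicate block of flask number, 6 of the 26 were called between days with 4-phenoxybenzoic acid, where all loci gave 452. With each flask of each culture type as a block, chosen after seeing the data, 4 were called, where all loci gave 409. The block of flask number changed no call of the 26 against the day 3 control or in the difference of changes. It was not run for phenetole or 9,10-dibutoxyanthracene. In the control comparison that chose the genes the block of flask number again called 23, with Trisim1_003029 in place of Trisim1_008600. The median difference with 4-phenoxybenzoic acid at day 3 ranged, with 1 flask left out, from −0.67 to −0.34 for the rising and −0.18 to 0.28 for the falling genes against the day 3 control, and from 0.51 to 0.87 and −1.35 to −1.01 against the day 1 control. Causes were not tested, apart from fewer samples where flasks were left out.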

Other observations

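Several rising genes were high in the same single flask. In the cultures with 4-phenoxybenzoic acid 14 of the 18 rising genes were highest in flask 3 at day 1 and 13 at day 3, where 38.4% and 41.8% of all loci tested were. In the day 1 control 11 were highest in flask 3, where 33.6% of loci were. In the day 3 control 11 were highest in flask 2, where 26.6% of loci were, and 9 were lowest in flask 1 and 7 in flask 3. Trisim1_002434, Trisim1_007300, Trisim1_000920, Trisim1_011751, Trisim1_010593 and Trisim1_011364, singled out after their values were seen, were at day 3 both highest in flask 3 with 4-phenoxybenzoic acid and lowest in flask 3 of the control. No share over all loci was computed for the lowest flask or for this joint pattern, so neither can be called particular to these genes. Trisim1_011364 stood at 1.01, 1.48 and 4.88 FPKM with the compound and 2.49, 3.56 and 0.506 FPKM in the control, and Trisim1_010593 at 0.342, 1.03 and 1.99 against 2.15, 1.39 and 0.0985 FPKM. With 9,10-dibutoxyanthracene at day 3 the flasks lay together, at 6.33, 5.28 and 4.06 FPKM for Trisim1_011364 and 2.44, 2.44 and 1.63 FPKM for Trisim1_010593.

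The spread between flasks of the 26 genes was wide at day 3 in both of these groups. Their median SD in log2(CPM + 0.5) was 0.54 with 4-phenoxybenzoic acid and 0.58 in the control, against 0.27 and 0.33 over all loci tested, and with 9,10-dibutoxyanthracene it was 0.26 against 0.23. At day 1 it was 0.34 against 0.25 with 4-phenoxybenzoic acid, 0.39 against 0.27 with 9,10-dibutoxyanthracene and 0.38 against 0.43 in the control. With phenetole it was 0.47 against 0.44 at day 1 and 0.31 against 0.29 at day 3. The day 3 control values helped to choose the genes. Low counts, which widen this SD, are frequent among the 26, and their part in it was not tested.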
